A study of Mus musculus with 4 samples.

Results

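Transcripts of 9 genes that write, copy, read or remove DNA methylation were examined in mouse lungs carrying 4T1 breast cancer metastases. The genes were Dnmt1, Uhrf1, Dnmt3a, Dnmt3b, Tet1, Tet2, Tet3, Tdg and Mbd2, taken by symbol from the 56748 genes of the count table, and each symbol matched 1 gene. The study tested an antibody-drug conjugate (ADC) together with a mitochondrial gene therapy, cmLumiOpto, in mice with lung metastases. Bulk RNA sequencing compared 2 samples of the ADC/cmLumiOpto group with 2 of the saline group, while the study's methods give 4 samples per group.

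All groups were female BALB/cJ mice, 7 weeks old, given 2000000 4T1-FLuc cells by tail vein injection. 4T1 is a mouse line of triple-negative breast cancer, here marked with firefly luciferase, and its growth in the lung models metastatic seeding from the blood. The ADC joins an antibody against CD276, a surface protein of many tumors, to the microtubule poison mertansine (DM1). In cmLumiOpto, a vector-borne light-gated channel in mitochondria is opened by luminescence from the injected substrate ViviRen. ADC was dosed at 8 mg/kg according to the methods and at 16 mg/kg according to the titles, with ViviRen at 2 mg/kg, and the treatment label carries the unexplained abbreviation Olap. Treatment lasted 3 weeks according to the design text. The control is named saline in the titles and PBS in the treatment label. The labels call the material tumor cells from the lung, and the methods call it dissociated lung with metastases. The labels do not say which mouse each sample came from, so p-values measure only the spread between these samples.

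DNA methylation in mammals sits mostly on the cytosine of CG pairs. Dnmt1 copies it onto the daughter strand after replication, guided by Uhrf1, which binds hemimethylated DNA, while Dnmt3a and Dnmt3b place it on new sites. The Tet enzymes oxidize methylcytosine, and Tdg excises the oxidized forms so that base excision repair can restore cytosine. Mbd2 binds methylated DNA and recruits the NuRD complex, a chromatin remodeler and histone deacetylase.

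Total counts lay between 15263375 and 19675436 per sample. Values are given in CPM, counts scaled to the TMM-normalized library size. A floor of 3 counts, which covers counting error only, equals 0.146 to 0.202 CPM. Levels of different genes are ranked in RPKM, CPM per 1000 bases of the gene length listed in the table. Summed epithelial markers, chosen for tumor cells, were between 3001 and 3353 CPM in saline and between 2873 and 2955 CPM in treated samples. These markers are not specific to tumor cells, so the sum is not a measure of tumor content. All 12 markers of alveolar type 2, alveolar type 1 and club cells were higher after treatment at an unadjusted p under 0.05 in edgeR. The alveolar type 2 sum, for example, was 293 to 1437 CPM in saline and 4484 to 5304 CPM in treated samples. All 4 fibroblast markers were lower at that threshold, with sums of 2461 to 3641 CPM in saline and 941 to 1077 CPM in treated samples. Summed myeloid markers were 1807 to 3058 CPM in saline and 5649 to 9722 CPM in treated samples, with 3 of 6 markers higher at that threshold. Those 3 were Lyz2, S100a8 and S100a9, and they dominated the sum. Lyz2 held 4299 CPM in ADC/cmLumiOpto sample 1, and S100a8 and S100a9 held 3089 and 3814 CPM in ADC/cmLumiOpto sample 2. S100a8 overlapped between groups. Adgre1, Csf1r and Itgam also overlapped, with log2 fold changes of 0.33, -0.04 and 0.15, so the sum does not describe all myeloid markers. The B cell marker Ms4a1 had no count in saline sample 2. The part of these cell populations in the results that follow was not tested, and in bulk samples fewer cells of a type cannot be told apart from less RNA per cell.

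Dnmt1, Uhrf1, Tet1 and Tdg were lower in the ADC/cmLumiOpto group at an unadjusted p under 0.05, and the other 5 members did not reach it in either direction. Their log2 fold changes, treated minus saline, were -0.73 for Dnmt1, -0.64 for Uhrf1, -1.202 for Tet1 and -0.82 for Tdg. All 9 members passed the filter on low counts. In edgeR's quasi-likelihood test, 0 of 9 members had an adjusted p under 0.05, as did 0 of 15320 genes tested (0%), with a smallest adjusted p of 0.116. The 4 lower members made up 44.4% of the 9, where 12.2% of all tested genes were lower and 11% higher at an unadjusted p under 0.05, or 3553 genes in all. The treated samples were both below the saline samples for 5 members, against 28.8% of all genes, and above both for 1, against 28.1%. Fewer than 4 members passed without either saline sample or without ADC/cmLumiOpto sample 1, fits in which smaller shares of all tested genes passed too. The median log2 fold change was -0.35 over the members and 0.03 over all tested genes. The members' median was 0.0039 with the trend on gene length removed, -0.16 without ADC/cmLumiOpto sample 1, -0.65 without ADC/cmLumiOpto sample 2 and -0.59 without saline sample 1. With Benjamini-Hochberg adjustment, DESeq2 called Dnmt1 and Uhrf1 (9.63% of genes called), as did the quasi-likelihood test without the count filter (8.84%). The edgeR exact test called only Dnmt1 among the members (7.64%). Permuting 2 samples against 2 cannot reach a two-sided p of 0.05, since the exact minimum is 0.33.

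**Figure D1:**
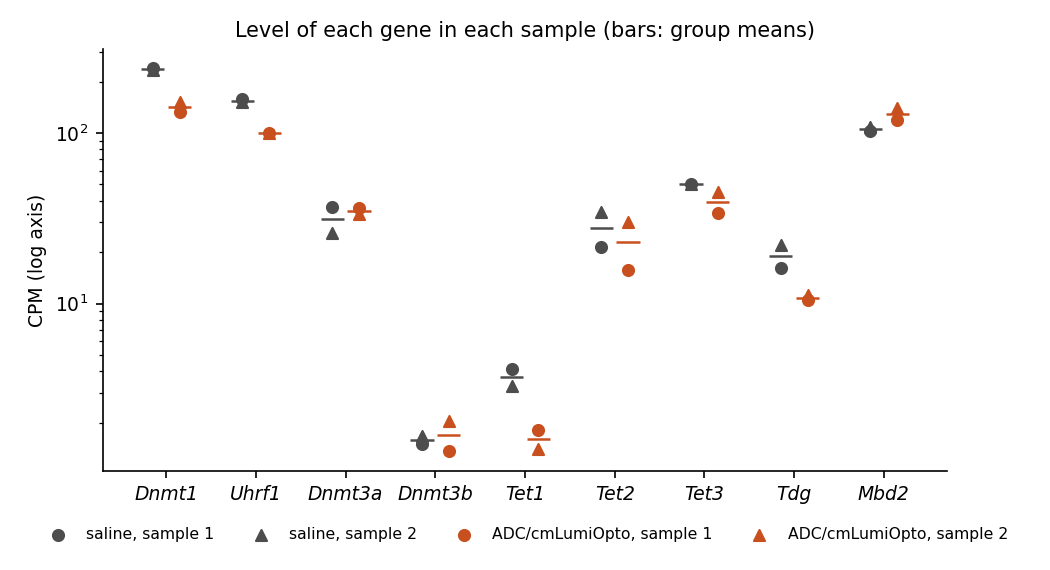
Level of each of the 9 genes in CPM (log axis) in each of the 2 saline and 2 ADC/cmLumiOpto samples, with symbols for samples and bars for group means. Dnmt1, Uhrf1, Tet1, Tet3 and Tdg had both treated samples below both saline samples, and Mbd2 had them above.

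Dnmt1, the maintenance methyltransferase, was lower in both treated samples. The gene (ENSMUSG00000004099) is listed on the minus strand of chromosome 9 from 20818505 to 20871184, with positions on mm39, the build named in the submitters' processing notes. It held 239 and 233 CPM in saline and 133 and 152 CPM in the treated samples, from between 2345 and 3821 counts. The groups did not overlap, and the treated samples differed from each other more than the saline samples did. The means were 236 ± 4.09 CPM in saline and 143 ± 13.9 CPM in treated samples (SD, n = 2 each). On the log2 scale the difference was -0.73, with a standard error of 0.16 and a 95% interval from -1.11 to -0.34 (edgeR adjusted p = 0.116). The adjusted p was 0.00517 in DESeq2, 0.0284 in the exact test and 0.00755 without the count filter.

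Uhrf1, the factor that brings Dnmt1 to hemimethylated DNA, was lower by a like amount. The gene (ENSMUSG00000001228) is listed on the plus strand of chromosome 17 from 56610321 to 56630486. Its levels were 157 and 153 CPM in saline and 99.2 and 99.8 CPM in the treated samples. The samples of each group lay close together, with a wide gap between groups. The means of 155 ± 3.50 CPM (SD, n = 2) and 99.5 ± 0.413 CPM (SD, n = 2) differed by -0.64 on the log2 scale (standard error 0.15, 95% interval -1.01 to -0.27, edgeR adjusted p = 0.123). The adjusted p was 0.0142 in DESeq2, 0.0288 without the count filter and 0.0527 in the exact test. Dnmt1 and Uhrf1 each stayed lower at an unadjusted p under 0.05 in 12 of 12 alternative settings, every single-sample omission included. Per length, Uhrf1 stood at 1.14 and 1.13 times Dnmt1 in saline and at 1.29 and 1.13 times in the treated samples. The ratio was highest in ADC/cmLumiOpto sample 1.

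Promoter sequence of the 2 maintenance genes is shown because they were the members with a motif of a class also found at replication genes. Of the 8 members with an entry in the RefSeq promoter table (GRCm38.p6, 250 bases before to 50 after each start), Dnmt1 and Uhrf1 held an E2F-type motif (TTTCCCGC, TTTCGCGC, TTTGCCGC or TTTGGCGC, on either strand). E2F factors drive many S-phase genes. The motif was found in 2.6% of all 27025 genes with an entry and in 7 of 23 DNA replication genes (30.4%). It was searched for after the expression values were known, and a match is a description of these letters, not of binding. The sequences follow 5′ to 3′ on each gene's strand, with the motif in capitals. The Dnmt1 stretch is 30 bases on the minus strand at chr9:20952825-20952854 and overlaps an annotated exon. The Uhrf1 stretch is 250 bases on the plus strand at chr17:56304063-56304312 outside annotated exons.
Dnmt1: tggtttccgcgcGCGCGAAAaagccggggt
Uhrf1: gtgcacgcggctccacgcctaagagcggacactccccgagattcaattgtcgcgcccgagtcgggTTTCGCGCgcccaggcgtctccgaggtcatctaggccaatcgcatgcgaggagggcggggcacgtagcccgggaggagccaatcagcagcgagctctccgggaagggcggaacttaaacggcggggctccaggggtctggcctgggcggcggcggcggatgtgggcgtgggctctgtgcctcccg
The Dnmt1 motif reads on the strand opposite to the gene and starts 219 bases before the start site of its window. The Uhrf1 motif starts 185 bases before the start site of its own window. Both genes have other listed start sites, whose windows held no motif, so these distances hold only for the start sites used here. The Uhrf1 stretch holds 30 CG pairs. A second Dnmt1 match, TTTGGCGC, lay after the same Dnmt1 start site. The members' promoters held a median of 31.5 CG pairs and those of all genes a median of 8.

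The de novo methyltransferases did not differ detectably between groups, and the difference between their changes and that of Dnmt1 was not tested. Dnmt3a (ENSMUSG00000020661, chromosome 12, 3856007 to 3964443, plus strand) held 37.0 and 26.02 CPM in saline and 36.5 and 33.7 CPM in the treated samples. The treated values lay inside the saline range. Its log2 fold change was 0.15 (standard error 0.22, 95% interval -0.37 to 0.68, edgeR adjusted p = 0.700). Dnmt3b (ENSMUSG00000027478, chromosome 2, 153491370 to 153529650, plus strand) was low, with 24 and 25 counts in saline and 24 and 42 in the treated samples. These were 1.5 and 1.69 CPM against 1.36 and 2.05 CPM, so the saline values fell between the treated values. The log2 fold change of 0.10 (standard error 0.49) had a 95% interval from -1.08 to 1.29 (edgeR adjusted p = 0.922), which is wide enough to hold a change as large as that of Dnmt1 in either direction. The partner Dnmt3l had at most 7 counts in any sample, and the rodent germline enzyme Dnmt3c had none.

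Per length, Dnmt1 made up most of the methyltransferase transcripts in every sample. Its share of the summed RPKM of Dnmt1, Dnmt3a and Dnmt3b was 92.8% and 94.4% in saline and 88.0% and 89.5% in the treated samples. Dnmt3a held 6.37% and 4.67% of the sum in saline samples and 10.7% and 8.77% in treated samples. The shares of both genes did not overlap between groups. The sum itself was 34.9 and 33.5 RPKM in saline and 20.5 and 23.1 RPKM in the treated samples.

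Of the 3 Tet genes, Tet1 was lower at an unadjusted p under 0.05 and Tet2 and Tet3 were not, and whether their changes differ from one another was not tested. Tet1 (ENSMUSG00000047146, chromosome 10, 62640349 to 62744775, minus strand) had 66 and 49 counts in saline and 32 and 29 in the treated samples. This corresponded to 4.13 and 3.30 CPM against 1.81 and 1.41 CPM, with no overlap. Its log2 fold change was -1.202 (standard error 0.43, 95% interval -2.23 to -0.17, edgeR adjusted p = 0.173). The estimate stayed between -1.39 and -0.85 in all 12 alternatives, but the unadjusted p was under 0.05 in only 7 of them and was lost with each of the 4 samples left out.

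Tet2 (ENSMUSG00000040943, chromosome 3, 133169440 to 133250900, minus strand), the family member often mutated in blood cancers, varied more within groups than between them. It held 21.3 and 34.3 CPM in saline and 15.7 and 30.1 CPM in the treated samples, and the groups overlapped. The log2 fold change was -0.28 (standard error 0.37, 95% interval -1.16 to 0.60, edgeR adjusted p = 0.678). Tet3 (ENSMUSG00000034832, chromosome 6, 83339355 to 83436066, minus strand) held 50.1 and 50.3 CPM in saline and 33.7 and 45.0 CPM in the treated samples. Both treated samples were below both saline samples, but they lay far apart. It was past an unadjusted p of 0.05 only without ADC/cmLumiOpto sample 2. Its log2 fold change was -0.35 (standard error 0.19, 95% interval -0.81 to 0.11, edgeR adjusted p = 0.314).

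Per length, Tet3 was the most abundant Tet transcript in every sample, with 66.2% and 57.3% of the summed Tet RPKM in saline and 65.8% and 59.0% in the treated samples. Tet2 held between 27.9% and 39.0%. Tet1 held 5.89% and 4.06% in saline and 3.83% and 2.00% in the treated samples. The summed Tet level was 4.53 and 5.26 RPKM in saline and 3.07 and 4.57 RPKM in treated samples, which overlapped, unlike the summed methyltransferase level.

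Tdg, the glycosylase that removes oxidized methylcytosine, was lower in both treated samples. The gene (ENSMUSG00000034674) is listed on the plus strand of chromosome 10 from 82465662 to 82486633. It held 16.3 and 22.0 CPM in saline and 10.4 and 11.2 CPM in the treated samples. The treated samples were close together and the saline samples were not. The log2 fold change was -0.82 (standard error 0.26, 95% interval -1.43 to -0.21, edgeR adjusted p = 0.145). It stayed between -1.03 and -0.58 in all 12 alternatives, with an unadjusted p under 0.05 in 10. That p was lost without saline sample 2 and without ADC/cmLumiOpto sample 1. The antisense neighbor Glt8d2 overlaps Tdg but had at most 13 counts in any sample.

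Mbd2, the methyl-CpG reader, was the only member with both treated samples above both saline samples. The gene (ENSMUSG00000024513) is listed on the plus strand of chromosome 18 from 70701260 to 70759202. It held 103 and 109 CPM in saline and 120 and 140 CPM in the treated samples. The log2 fold change was 0.29 (standard error 0.17, 95% interval -0.11 to 0.69, edgeR adjusted p = 0.330), and the unadjusted p was under 0.05 in 0 of 12 alternatives. Per length, Mbd2 stood at 0.989 and 1.07 times the level of Dnmt1 in saline and at 2.07 and 2.1 times in the treated samples.

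**Figure D2:**
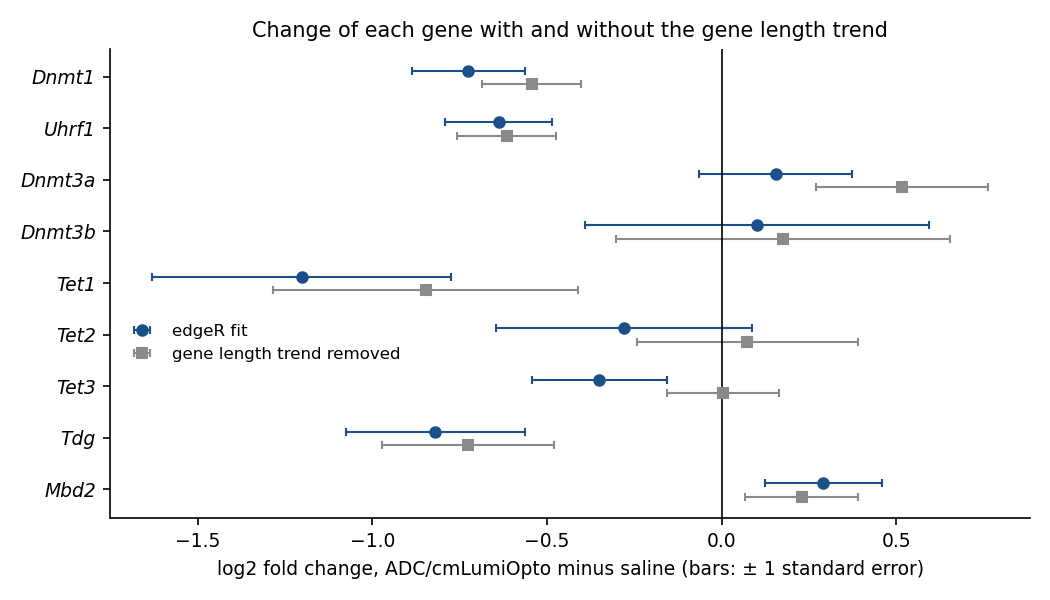
Log2 fold change (ADC/cmLumiOpto minus saline) of each gene in edgeR's quasi-likelihood fit, as fitted and with the gene length trend removed. Bars extend a standard error to each side. The 95% intervals as fitted, given in the text and not drawn, lie below 0 for Dnmt1, Uhrf1, Tet1 and Tdg. Those of the other 5 genes include 0.

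The order of the levels per length moved between groups. In the saline group Uhrf1 (36.4 RPKM), Mbd2 (33.0 RPKM) and Dnmt1 (31.99 RPKM) stood together at the top. In the treated group Mbd2 (40.3 RPKM) stood above Uhrf1 (23.4 RPKM) and Dnmt1 (19.3 RPKM). Tdg, Tet3, Dnmt3a and Tet2 formed a middle tier between 1.36 and 3.56 RPKM in both groups. Dnmt3b (0.312 RPKM in saline and 0.334 RPKM in treated samples) and Tet1 (0.240 and 0.104 RPKM) were lowest.

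Longer genes were lower after treatment across all tested genes, where gene length and log2 fold change had a Spearman's rho of -0.34 (genes are not independent replicates). Of the members, Tet1, Tet2, Tet3 and Dnmt3a are listed with between 15457 and 16870 bases. With the length trend removed, Dnmt1 was at -0.54, Uhrf1 at -0.62 and Tdg at -0.73, each still at an unadjusted p under 0.05. Tet1 moved to -0.85 and was past that threshold no longer. Tet2 and Tet3 were then at 0.07 and 0.00, so their direction depended on this correction, and Dnmt3a was at 0.52.

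Dnmt1 and Uhrf1 act at the replication fork, so their levels were set against those of 28 DNA replication genes in the same sample. The mean log2 CPM of these genes was 5.97 and 5.94 in saline and 5.71 and 5.53 in the treated samples. Of the 28, 13 were lower (46.4%, against 12.2% of all tested genes) and 0 higher (against 11%) at an unadjusted p under 0.05. The median log2 fold change of the 28 was -0.35. Those with the smallest p were Mki67, a marker of cycling cells (-0.93, standard error 0.17), Top2a, a topoisomerase (-0.83, standard error 0.17), Mcm6 of the replicative helicase (-0.75, standard error 0.15) and Chaf1b, a histone chaperone subunit (-0.75, standard error 0.16). The adjusted p was 0.116 for all 4 (edgeR). The count of 13 was smaller without saline sample 2, where the share of all tested genes that were lower was smaller too.

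This scale is in CPM, not per length, so only the difference between groups is read from it. Relative to the mean of the replication genes, Dnmt1 stood at 1.93 and 1.93 log2 units in saline and at 1.35 and 1.73 in the treated samples. Uhrf1 stood at 1.33 and 1.31 against 0.92 and 1.11. Both remained lower in both treated samples on this scale, by a mean of 0.39 and 0.30 log2 units. The reference mean takes in 8 replication genes with a log2 fold change above 0. Mki67, Top2a, Mcm6 and Chaf1b, picked from the list by smallest p, had larger negative estimates than Dnmt1 and Uhrf1. These differences were not tested, and those of Mcm6 and Chaf1b (both -0.75) from Dnmt1 (-0.73) were smaller than a standard error. The size of the remaining difference thus depends on the genes listed. Tet1 differed by -0.86 and Tdg by -0.47 on the same scale. Tet2 and Tet3 differed by 0.02 and -0.03, and Mbd2 by 0.62.

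**Figure D3:**
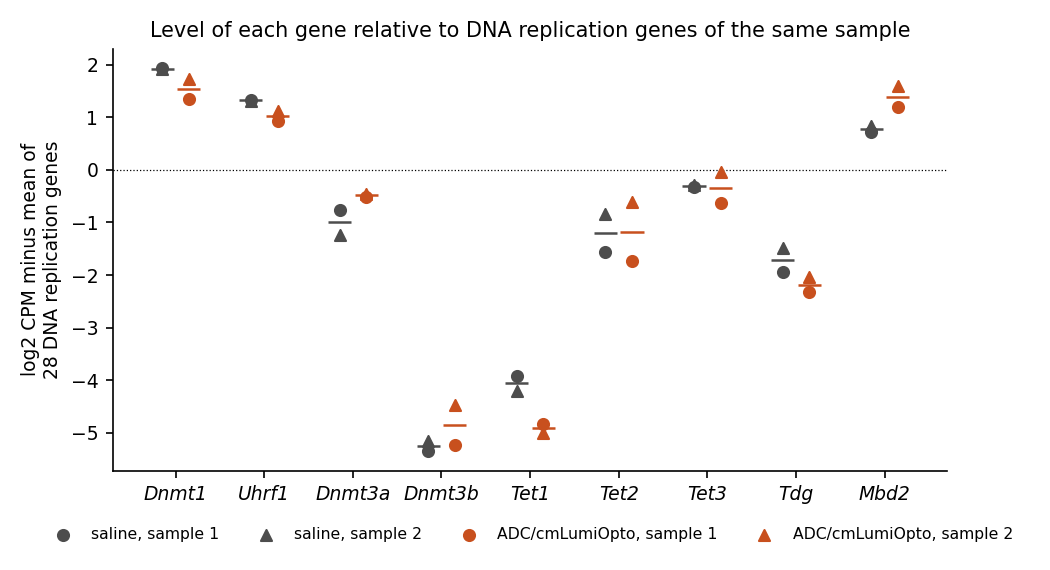
Log2 CPM of each gene minus the mean log2 CPM of 28 DNA replication genes in the same sample, with symbols for samples and bars for group means. Dnmt1, Uhrf1, Tet1 and Tdg remain lower and Dnmt3a and Mbd2 are higher in both treated samples.

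The wider pathway was read from 6 lists, which together hold 82 genes, of which 77 were tested. At an unadjusted p under 0.05, 17 were lower (22.1%, against 12.2% of all tested genes), 4 higher (5.19%, against 11%) and 56 neither, and 0 had an adjusted p under 0.05 in edgeR. The median log2 fold change was -0.16. Both counts were smaller with either saline sample left out. The shares of all tested genes past that threshold were smaller in these fits too, which also bears on the omission counts of each list that follows.

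Partners that maintain or target methylation had a median near that of all genes. Of 10 tested genes, 1 was lower (10%, against 12.2% of all tested genes) and 0 higher, with a median of -0.02. The lower gene was Cdca7l, a relative of the Hells partner Cdca7, with 54.3 and 52.8 CPM in saline and 38.7 and 33.9 CPM in treated samples (log2 fold change -0.56, standard error 0.16, edgeR adjusted p = 0.137). It did not pass without saline sample 1. Pcna, the sliding clamp that Dnmt1 binds, was at 0.02.

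Among 7 methyl-CpG readers other than Mbd2, 3 were lower (42.9%, against 12.2% of all tested genes) and 0 higher (against 11%). All 7 had a negative log2 fold change, but Mbd4 was at -0.03 and Mbd3 and Zbtb4 were at -0.12. Mbd2 had the opposite sign with an interval that included 0, and the difference in sign was not tested. Zbtb38, a zinc finger reader, held 103 and 117 CPM in saline and 51.7 and 49.6 CPM in treated samples (-1.11, standard error 0.17, edgeR adjusted p = 0.116). Zbtb33, or Kaiso, was at -0.47. The groups did not overlap for Zbtb38 or Zbtb33. The count of 3 was 2 with each of saline sample 1, saline sample 2 and ADC/cmLumiOpto sample 2 left out.

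NuRD, the complex that Mbd2 recruits, had 6 of 13 subunits lower (46.2%, against 12.2% of all tested genes) and 0 higher. The median was -0.40. The remodeling helicases Chd3 and Chd4 were at -0.69 (standard error 0.18) and -0.60 (standard error 0.17), and the bridging subunits Gatad2b and Gatad2a at -0.76 (standard error 0.20) and -0.56 (standard error 0.18). Chd4, the most abundant of these 4 per length, held 55.9 and 49.8 RPKM in saline and 31.7 and 38.1 RPKM in treated samples. The count of 6 was 3 without saline sample 1 and 1 without saline sample 2.

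Partners in repressive histone methylation had 6 of 16 genes lower (37.5%, against 12.2% of all tested genes) and 0 higher, with a median of -0.25. These included Trim28, which silences retroelements (-0.55, standard error 0.15), the Polycomb subunits Suz12 (-0.53, standard error 0.16) and Ezh2 (-0.45, standard error 0.17), and the chromatin remodeler Atrx (-0.59, standard error 0.18). Trim28 held 348 and 350 CPM in saline and 236 and 240 CPM in treated samples. The count of 6 was 1 without saline sample 1, 0 without saline sample 2 and 2 with the length trend removed. With upper-quartile factors 3 genes were lower and 2 higher, and without TMM factors 5 were lower and 1 higher.

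Demethylation partners and base excision repair genes had 1 of 20 lower (5%) and 3 higher (15%), against 12.2% and 11% of all tested genes, and a median of 0.01. Gadd45b, a stress-induced gene linked to active demethylation, was at 9.50 and 7.15 CPM in saline and 21.03 and 27.2 CPM in treated samples (1.53, standard error 0.27, edgeR adjusted p = 0.116). Its relative Gadd45g was at 0.76 (standard error 0.29) and the cytidine deaminase Apobec1 at 1.199 (standard error 0.48), while the DNA ligase Lig3 was at -0.72 (standard error 0.24). With the length trend removed, 2 genes of this list were lower and 1 was higher, and without saline sample 1 there were 0 lower and 2 higher. The methyl donor list takes in genes for both the supply and the use of S-adenosylmethionine. Of its 12 genes, 0 were lower and 1 was higher (8.33%, against 11% of all tested genes). That gene, the glycine methyltransferase Gnmt, had only 11 and 10 counts in saline and 25 and 47 in treated samples (log2 fold change 1.44, standard error 0.55). The count of 1 was 0 with DESeq2, with the length trend removed, without saline sample 1 and without saline sample 2.

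**Figure D4:**
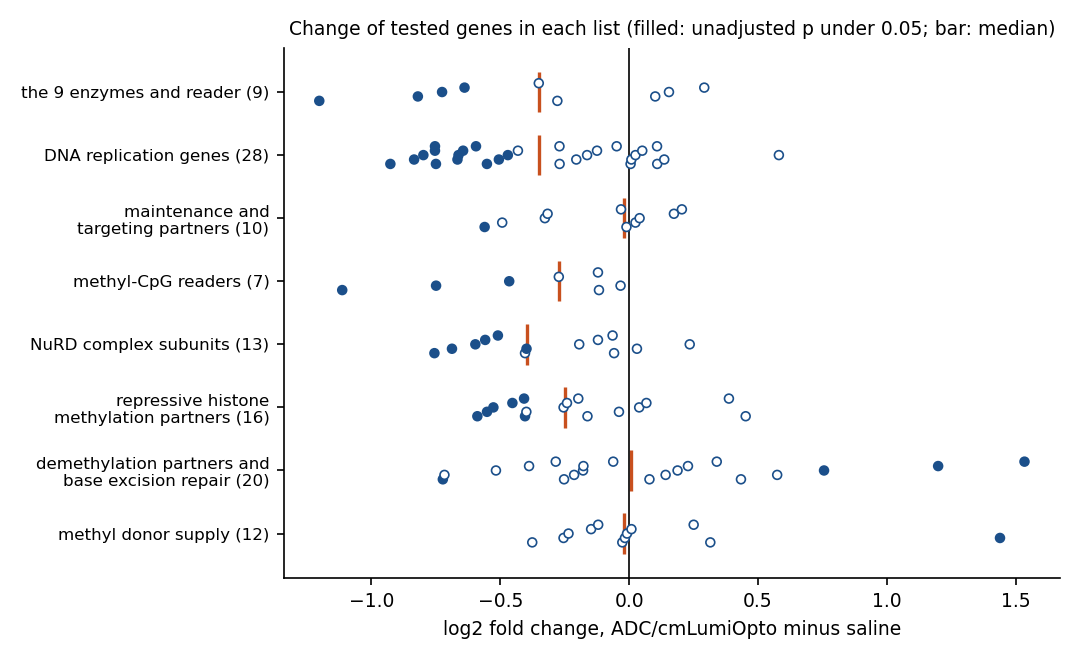
Log2 fold change (ADC/cmLumiOpto minus saline) of each tested gene of the members, the pathway lists and the DNA replication list, with filled points at an unadjusted p under 0.05. NuRD subunits and replication genes have medians of -0.40 and -0.35, and the maintenance, repair and methyl donor lists have medians between -0.02 and 0.01.

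Germline genes that promoter methylation keeps silent in somatic cells were near absent in every sample, apart from Piwil2. The 14 genes of this list summed to 57 and 66 counts in saline and 35 and 64 in the treated samples, and between 7 and 9 of them had no count in a given sample. Only Piwil2 passed the filter, with 30 and 44 counts in saline and 21 and 44 in the treated samples. Its log2 fold change was -0.53 (standard error 0.52, edgeR adjusted p = 0.574). No gain of these transcripts was detectable at this depth. Of 14 tested imprinted genes, 2 were lower (14.3%, near the 12.2% of all tested genes) and 0 higher, with a median of 0.23 that was -0.11 without ADC/cmLumiOpto sample 2 and 0.01 without saline sample 2. The log2 fold change was above 0 for 8 of the 14. The maternally expressed noncoding RNA H19, named after its values were seen, held 167 and 265 CPM in saline and 73.3 and 71.1 CPM in treated samples (-1.58, standard error 0.24, edgeR adjusted p = 0.116). The other was Grb10, at -0.71. The count of 2 was 1 without saline sample 1, without ADC/cmLumiOpto sample 2 and with the length trend removed.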

How the data were processed

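The deposited table holds whole-number read counts, not normalized by the authors, and a length for each gene. The submitters' processing notes name HISAT2, HISAT, TopHat2 and mm39, whereas the study's methods name HISAT2 and GRCm38. The counting program is not given in the sources used here, and whether reads were counted by strand is not stated. Samples were grouped by their titles.

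The test was edgeR 4.0.16 under R 4.3.3 (filterByExpr at 10 counts, 15 in total, TMM factors between 0.973 and 1.04, glmQLFit and glmQLFTest, Benjamini-Hochberg adjustment). Standard errors are the log2 fold change divided by the square root of F. Gene lengths were used as listed. How they were computed is not stated. Alternatives were DESeq2 1.42.0, the edgeR exact test, other normalizations and filters, a replicate block, removal of a gene length trend (lowess span 0.3) and each sample left out in turn. In simulated counts with 200 genes changed by a log2 value of 2, the quasi-likelihood test called 98.5% of them and 6 unchanged genes, among 15058 tested. The simulation gave every gene the same dispersion, and its changed genes moved more than any member did. It does not measure the power to call changes of the members' size in these samples.

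The members and gene lists were chosen with earlier results of these data known. All members are described. From each pathway list the genes at an unadjusted p under 0.05 are named, at most 4 by smallest p, and from the replication list the 4 with the smallest p, apart from an item that is not reported here. The counts for these lists under each alternative were added after seeing the data.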

Additional observations from a re-analysis of the deposited data

How the results depend on the processing

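Direction and significance were recomputed under 12 alternatives. The number of genes with an adjusted p under 0.05, 0 by the quasi-likelihood test, was 1332 with DESeq2, 1170 with the exact test, 2259 without the count filter, 607 with the replicate block and between 0 and 218 with one sample left out. The members so called numbered 2 with DESeq2, 1 with the exact test and 2 without the filter. The sample numbers do not pair the samples by any label. Over the 2 numbers, the deviations of same-numbered samples correlated at 0.0993, and the replicate block changed no member's call. With one sample left out, between 2 and 4 members were lower at an unadjusted p under 0.05, and their median was between -0.65 and -0.16. Omissions gave between 5 and 14 lower and between 2 and 5 higher pathway genes, and between 6 and 14 lower replication genes. The members' median was -0.27 with upper-quartile factors and 0.0039 with the length trend removed, where 1 pathway gene was higher. That correction put Tet2 at 0.073 and Tet3 at 0.0039. Omissions moved Dnmt3a between -0.074 and 0.42, Dnmt3b between -0.23 and 0.36 and Tet2 between -0.83 and 0.12. The shares of all tested genes at an unadjusted p under 0.05 also fell with saline sample 1, saline sample 2 or ADC/cmLumiOpto sample 1 left out. The cause of these shifts was not tested. Among the members, the lowest counts, and the widest standard errors, were those of Dnmt3b and Tet1.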
